A study of Mus musculus with 4 samples.

Results

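The genes described here are 33 genes of the unfolded protein response and the integrated stress response, measured in mouse muscle satellite cells with and without the calcitonin receptor gene Calcr. They were taken by gene symbol from the platform annotation, with no cut on their values. Earlier results of these data were known when the list was made. The 33 genes were read by 77 of the 45101 probe sets of the array. Of these, 68 probe sets for 32 genes reached the median brightness over all arrays (a signal of 63.9) and entered the test. Trib3 was the member below that level. The genes were grouped by role into 13 chaperones and folding enzymes of the endoplasmic reticulum (ER), 6 genes of ER degradation, 4 genes of the Ire1 branch, Atf6 itself, and 9 genes of the Perk branch and the integrated stress response.

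Satellite cells are the resident stem cells of skeletal muscle. The cKO cells came from Pax7-CreERT2 mice with Calcr flox/flox and Rosa-YFP alleles, in which a Cre made from the Pax7 locus, active under tamoxifen, deletes Calcr in satellite cells and switches on YFP. The control cells came from Pax7-CreERT2 mice with Calcr +/+ and Rosa-YFP, so both groups carried the same Cre and reporter and both received tamoxifen. The cells were sorted by their YFP, uncultured, 2 weeks after tamoxifen, from animals aged 10 weeks. Each group held 2 biological replicates, numbered 1 and 2, with 1 array each, and this number limits the precision. The labels do not say how many mice went into a replicate.

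The unfolded protein response watches protein folding in the ER. Its 3 sensors are the kinase and nuclease Ire1 (gene Ern1), the kinase Perk (Eif2ak3) and the membrane-bound factor Atf6. Active Ire1 splices the Xbp1 transcript, Atf6 is cleaved in the Golgi, and the released factors switch on chaperones and degradation genes. Perk phosphorylates the translation factor eIF2alpha, which slows translation as a whole while favouring Atf4, whose targets include Ddit3, Chac1, Trib3 and Asns. Phosphorylation of eIF2alpha is known as one of the controls that hold satellite cells in quiescence. The arrays read total transcripts per gene, so neither Xbp1 splicing nor eIF2alpha phosphorylation was measured.

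Some of these genes had a match to a known promoter element of the response. Only exact spellings within short windows were searched, so a gene without a match can still carry an element. The genes were listed for their known part in that response. The shares below therefore describe the list and test nothing. The ER stress response element, ERSE, is bound by Atf6 together with the factor NF-Y. It was searched on both strands as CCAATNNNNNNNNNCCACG in RefSeq windows of GRCm38.p6 that run from 250 bases before to 50 bases after each start. Windows were on hand for 28 of the 33 members, 30 windows in all. ERSE was found in 8 of these 30 windows (26.7%), against 39 of 32851 windows of all genes (0.119%). The 9 matches are given in the direction of the element, with its fixed letters in capitals.
Hspa5, chr2:34772025-34772043: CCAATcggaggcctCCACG
Hsp90b1, chr10:86705638-86705656: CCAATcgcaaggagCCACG
Hsp90b1, chr10:86705533-86705551: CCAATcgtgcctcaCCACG
Calr, chr8:84847075-84847093: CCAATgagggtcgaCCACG
Canx, chr11:50325800-50325818: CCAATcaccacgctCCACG
Creld2, chr15:88819520-88819538: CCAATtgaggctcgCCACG
Pdia6, chr12:17266491-17266509: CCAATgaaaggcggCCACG
Dnajc3, chr14:118937827-118937845: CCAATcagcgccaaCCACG
Syvn1, chr19:6046532-6046550: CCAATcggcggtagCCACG

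Hsp90b1 held 2 of the 9 matches. Read against the gene's own direction were the elements of Calr and Creld2 and the Hsp90b1 element nearer to the start. Of the 8 genes, 6 were chaperones or folding genes, Dnajc3 belonged to the Ire1 branch and Syvn1 to ER degradation. A related element, ERSE-II, was found in 2 member windows (6.67%) and in 0.0365% of all windows. The windows with it were those of Dnajb11 and Herpud1, with the fixed letters in capitals.
Dnajb11, chr16:22857852-22857862: ATTGGcCCACG
Herpud1, chr8:94386377-94386387: ATTGGgCCACG

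The element of the integrated stress response, CARE, bound by Atf4 with C/EBP partners, was searched as TGATGNAA. It was found in 4 member windows (13.3%) and in 3.97% of all windows. It is a short motif, so the share over all genes is much higher than for ERSE. The windows were those of Chac1, Asns, Trib3 and Herpud1.
Chac1, chr2:119351049-119351056: TGATGcAA
Asns, chr6:7693225-7693232: TGATGaAA
Trib3, chr2:152344039-152344046: TGATGtAA
Herpud1, chr8:94386317-94386324: TGATGcAA

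A UPRE core, TGACGTGG, which spliced Xbp1 can bind, was found in 0 of the 30 member windows and in 0.676% of all windows. No match overlapped another. The full windows of Hspa5 (chr2:34771840-34772139, plus strand) and Creld2 (chr15:88819396-88819695, plus strand) are printed because, of the 8 genes with an ERSE, they had the smallest and the largest spread of signal across the arrays, as given further on. Capitals mark the ERSE, which in Creld2 reads against the gene.
Hspa5: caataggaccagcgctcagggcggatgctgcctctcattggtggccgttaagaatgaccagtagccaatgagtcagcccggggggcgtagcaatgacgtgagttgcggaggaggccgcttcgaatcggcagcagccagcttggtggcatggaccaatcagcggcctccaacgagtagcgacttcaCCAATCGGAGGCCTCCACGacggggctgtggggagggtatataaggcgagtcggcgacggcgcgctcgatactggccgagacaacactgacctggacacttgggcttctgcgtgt
Creld2: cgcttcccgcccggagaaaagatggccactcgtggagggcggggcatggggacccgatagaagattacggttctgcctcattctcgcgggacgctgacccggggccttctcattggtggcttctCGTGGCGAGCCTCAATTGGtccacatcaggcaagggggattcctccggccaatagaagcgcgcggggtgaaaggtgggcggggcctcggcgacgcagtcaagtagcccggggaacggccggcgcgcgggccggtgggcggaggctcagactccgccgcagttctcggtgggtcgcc

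The arrays were checked before the genes were compared. Calcr, the targeted gene, read 568 and 684 in cKO cells and 1268 and 1424 in control cells, which is the direction of the labels. The log2 difference of Calcr was -1.11 (SE 0.25). Whether its probe set reads the deleted part of the gene is unknown here. Satellite cell markers were bright on every array, with Pax7 between 2170 and 3647, and their summed signal was 25017 and 25209 in cKO and 25609 and 33696 in control. Control 2 had the highest reading for 11 of the 12 markers. The markers include Calcr itself and Chrdl2, which read 476 and 91.3 in cKO and 999 and 2086 in control. The summed satellite cell signal is therefore not independent of genotype. The cell sorts were not alike in other cell types. Summed over 16 endothelial genes the signal was 9145 and 1514 in cKO and 10166 and 1271 in control, so it was high on both arrays numbered 1. Summed over 21 leukocyte genes it was 1842 and 757 in cKO and 1778 and 3005 in control. Of these 21 genes, 14 were highest on control 2. Only 7 of the 21 reached the brightness needed for the test, so the sum rests on few genes. In such mixed RNA, fewer cells of a type and less RNA per cell cannot be told apart.

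**Figure D1:**
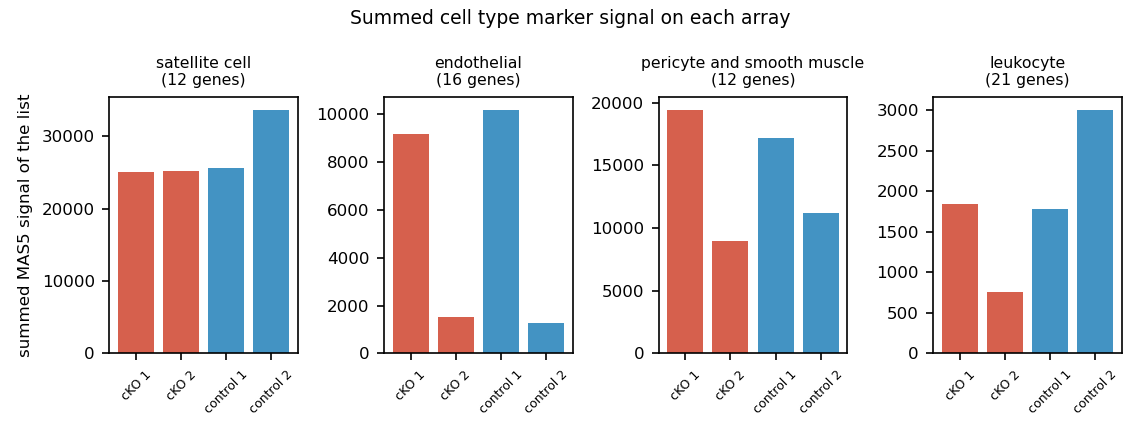
Summed MAS5 signal (linear scale from 0) of the measured marker genes of 4 cell types on each array, cKO bars in red and control bars in blue. Endothelial and pericyte signal was high on both arrays numbered 1, and leukocyte signal was highest on control 2 (3005) and lowest on cKO 2 (757).

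No gene of the unfolded protein or integrated stress response passed the test between cKO and control cells. In limma over 22519 probe sets, 0 had an adjusted p under 0.05 (0%), and the same held for the 32 members tested, each with an adjusted limma p of 0.99999. At an unadjusted limma p under 0.05 there were also 0 members, where 0.266% of all 10140 genes were higher and 0.454% lower. The smallest unadjusted limma p of a member was 0.0664, that of Xbp1. With 2 arrays a group, the smallest 2-sided p that an exact permutation test can give is 0.333.

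By direction, 25 of the 32 members (78.1%) had the lower mean log2 signal in cKO, beside 57.3% of all genes. The median log2 difference of the members was -0.13, and over all genes it was -0.043. This lean was not steady. Without control 2 the members' median was 0.053 and without cKO 2 it was 0.036, whereas without control 1 and without cKO 1 it was -0.18 and -0.28. With arrays centred on their median, 19 of 32 members were lower (median -0.069, all genes 0.01). After quantile normalization 18 were lower (median -0.072, all genes 0.02).

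**Figure D2:**
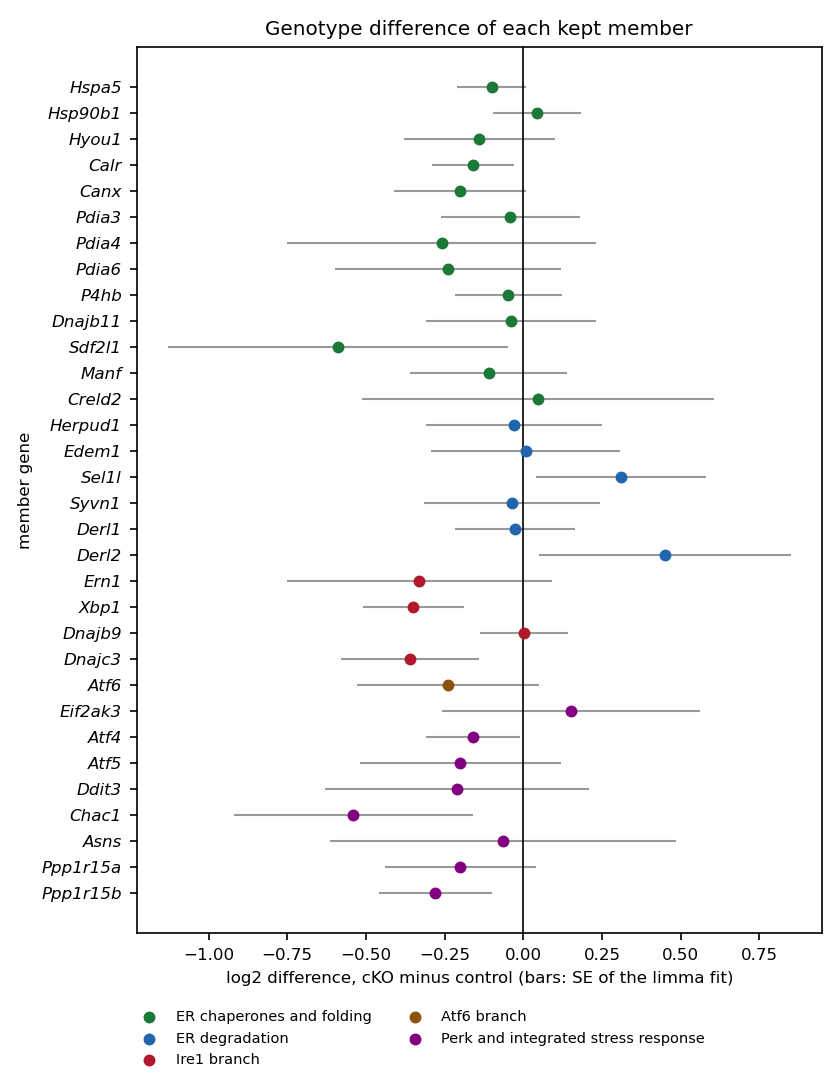
Log2 difference, cKO minus control, of each of the 32 tested members (points coloured by branch) with the SE of the limma fit as bars. Xbp1 lies at -0.35 with an SE of 0.16, Chac1 at -0.54 with 0.38 and Derl2 at 0.45 with 0.40, and none of the 32 passed the test.

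Members that stood apart by genotype on all 4 arrays were few. For 6 members (18.8%) the higher cKO reading was below the lower control reading, beside 12.1% of all genes. For 1 member (3.12%) the cKO readings were both above the control readings, beside 8.53%. The 6 were Xbp1, Dnajc3, Ppp1r15b, Calr, Hspa5 and Chac1, and the 1 was Sel1l. Xbp1, Dnajc3 and Ppp1r15b on the lower side and Sel1l on the higher side also did not overlap after quantile normalization and after centring on the median. Hspa5 and Chac1 overlapped under both of these scalings, and Calr under quantile normalization alone. Under both scalings 2 further members did not overlap, Canx on the lower side and Hsp90b1 on the higher side. When the kept probe sets of each gene were averaged, Dnajc3 and Sel1l overlapped, while Atf4 on the lower side and Derl2 on the higher side did not.

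The Ire1 branch held the clearest of these genes. Xbp1, the factor that Ire1 activates by splicing, read 2562 and 2275 in cKO cells, against 3006 and 3158 in control cells. Every cKO reading was below every control reading (log2 difference -0.35, SE 0.16). The other 3 Xbp1 probe sets gave log2 differences of -0.30, -0.30 and -0.29, and those with -0.30 did not overlap either. The last read 1622 and 1226 in cKO and 1598 and 1860 in control, so there the groups overlapped. Xbp1 was lower in cKO within both replicate numbers, by 1.17-fold between the arrays numbered 1 and by 1.39-fold between those numbered 2. After quantile normalization the within-number log2 differences of Xbp1 were -0.31 and -0.30.

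Dnajc3 encodes p58IPK, an ER co-chaperone that also inhibits Perk. On the probe set that stands for it, the brightest one, it read 1871 and 1371 in cKO and 2144 and 1963 in control. The groups did not overlap there (log2 difference -0.36, SE 0.22). Its 5 probe sets did not share a sign. Of the other 4, 2 were lower in cKO (log2 differences -0.29 and -0.085) and 2 higher (0.20 and 0.059), and the mean over all 5 differed by -0.095.

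Ern1, the sensor itself, read 500 and 248 in cKO and 533 and 370 in control. The cKO 1 and control 1 readings were both high, and the groups overlapped (log2 difference -0.33, SE 0.42). Of its other kept probe sets one differed by 0.17 and one by -0.054. Dnajb9, a co-chaperone known as ERdj4 and a standard Xbp1 target, read 4204 and 3741 in cKO and 4099 and 3828 in control. That is a fold of 1.03 between the arrays numbered 1 and of 1.02, in the opposite direction, between those numbered 2.

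**Figure D3:**
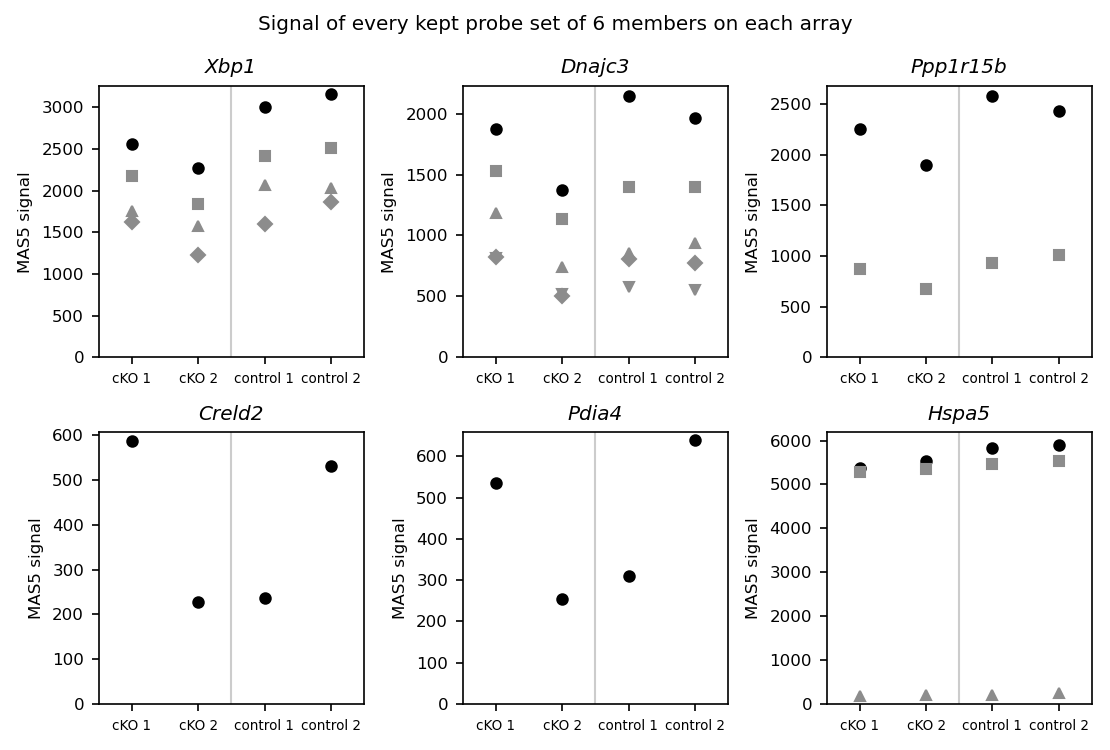
MAS5 signal (linear scale from 0) of every kept probe set of 6 members on the 4 arrays, black for the probe set that stands for the gene and grey for others. Xbp1 is lower on both cKO arrays in 3 of its 4 probe sets, whereas Creld2 and Pdia4 are high on cKO 1 and control 2 and low on the other 2 arrays.

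The Atf6 sensor followed no genotype split either. Atf6 read 839 and 588 in cKO cells, against 883 and 778 in control cells, so cKO 1 lay between the control readings. The groups overlapped (log2 difference -0.24, SE 0.29). The other 2 probe sets of Atf6 were lower in cKO too, by log2 differences of -0.15 and -0.18.

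Most chaperones and folding enzymes shared a pattern across the arrays. In 11 of 13 genes (84.6%) cKO was higher than control between the arrays numbered 1 and lower between those numbered 2. Of all genes, 44.8% showed this pattern. It was not particular to this group, being shown by 4 of 6 ER degradation members and 74.5% of the other pathway genes described below. Counting only differences of at least 1.5-fold each way, there were 3 such members (9.38%), Pdia4 and Creld2 of this group and Asns, beside 2.8% of all genes. Over the 13 genes the median log2 difference was 0.31 within number 1 and -0.46 within number 2, where all genes had medians of 0.095 and -0.19. Centring the arrays on their median removes most of the shift of all genes by construction. With arrays centred on their median the all-gene values were 0.04 and -0.02, and 9 of the 13 genes kept the pattern, beside 31.5% of all genes.

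Creld2, which encodes a secreted ER protein induced by misfolding, had the widest gap between the differences within the 2 numbers. It read 588 and 228 in cKO cells, against 237 and 532 in control cells. The high readings were cKO 1 and control 2, a 2.48-fold difference in favour of cKO within number 1 and a 2.33-fold difference against it within number 2. Pooled over the numbers, its log2 difference was 0.046 (SE 0.56).

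Pdia4, a protein disulphide isomerase, read 536 and 255 in cKO, against 309 and 639 in control. It was again high on cKO 1 and control 2, and the within-number log2 differences were 0.79 and -1.32. Sdf2l1, a partner of the Hspa5 chaperone cycle, read 119 and 94.9 in cKO, against 94.1 and 275 in control. Here 1 array stood out, control 2, and the log2 difference of -0.59 (SE 0.54) became 0.17 without it. Pdia6, another disulphide isomerase, read 706 and 419 in cKO, against 545 and 762 in control (log2 difference -0.24), and its dimmer probe set differed by 0.034.

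Canx (calnexin), a lectin chaperone, read 1859 and 1424 in cKO cells, against 1812 and 1926 in control cells, with cKO 2 apart from the other arrays. On the probe sets that stand for the genes, Canx and the other 6 folding genes of this pattern varied less than Creld2, Pdia4, Sdf2l1 and Pdia6. Their signals spanned 1.13-fold over the 4 arrays for Hsp90b1 (Grp94), 1.26-fold for P4hb, 1.35-fold for Canx and 1.36-fold for Pdia3. For the nucleotide exchange chaperone Hyou1 the span was 1.41-fold, for the secreted ER protein Manf 1.46-fold and for the co-chaperone Dnajb11 1.55-fold. A second Hsp90b1 probe set did not show the pattern. It read 3774 and 3811 in cKO, against 3946 and 3982 in control, without overlap (log2 difference -0.064). Hyou1 read 1687 and 1376 in cKO, against 1459 and 1945 in control. A dimmer Hyou1 probe set varied more, at 924 and 431 in cKO, against 701 and 1031 in control, a 2.39-fold span. Another Hyou1 probe set spanned 1.59-fold. Of these 7 genes, Hsp90b1, P4hb, Pdia3 and Dnajb11 were highest on cKO 1 and Canx, Hyou1 and Manf on control 2. Their pooled log2 differences ran from -0.20 for Canx to 0.044 for Hsp90b1.

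Leukocyte signal was also lower on cKO 2 than on control 2, and satellite cell marker signal was highest on control 2, as given above. Between the arrays numbered 1, where the members' direction was the opposite, summed leukocyte signal was 1842 in cKO and 1778 in control and summed satellite cell signal 25017 and 25609. The part of these cells in the pattern of the folding genes was not tested.

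Hspa5 and Calr were the 2 chaperones outside that pattern. Hspa5 (BiP), the main ER chaperone, which holds the sensors inactive, was the steadiest member of all, with a 1.10-fold span. It read 5383 and 5543 in cKO cells, against 5831 and 5898 in control cells. All cKO readings were lower (log2 difference -0.10, SE 0.11). Calr (calreticulin) read 4312 and 3858 in cKO, against 4539 and 4602 in control, with a log2 difference of -0.16 (SE 0.13). All 3 probe sets of each gene had that sign. With arrays centred on their median Hspa5 differed by -0.17 within number 1 and by 0.078 within number 2.

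Among the 8 members with an ERSE match, 5 showed the opposed pattern (Hsp90b1, Canx, Creld2, Pdia6 and Syvn1) and 3 were lower in cKO within both numbers (Hspa5, Calr and Dnajc3). These tallies moved with the scaling. After quantile normalization and after centring on the median, Hsp90b1 was higher in cKO within both numbers and Canx lower within both, and Hspa5 was lower within number 1 alone. Creld2, Pdia6 and Syvn1 kept the opposed pattern under both, and Calr and Dnajc3 stayed lower within both numbers. The spans over the arrays of the 8 genes ran from 1.10-fold for Hspa5 to 2.58-fold for Creld2.

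**Figure D4:**
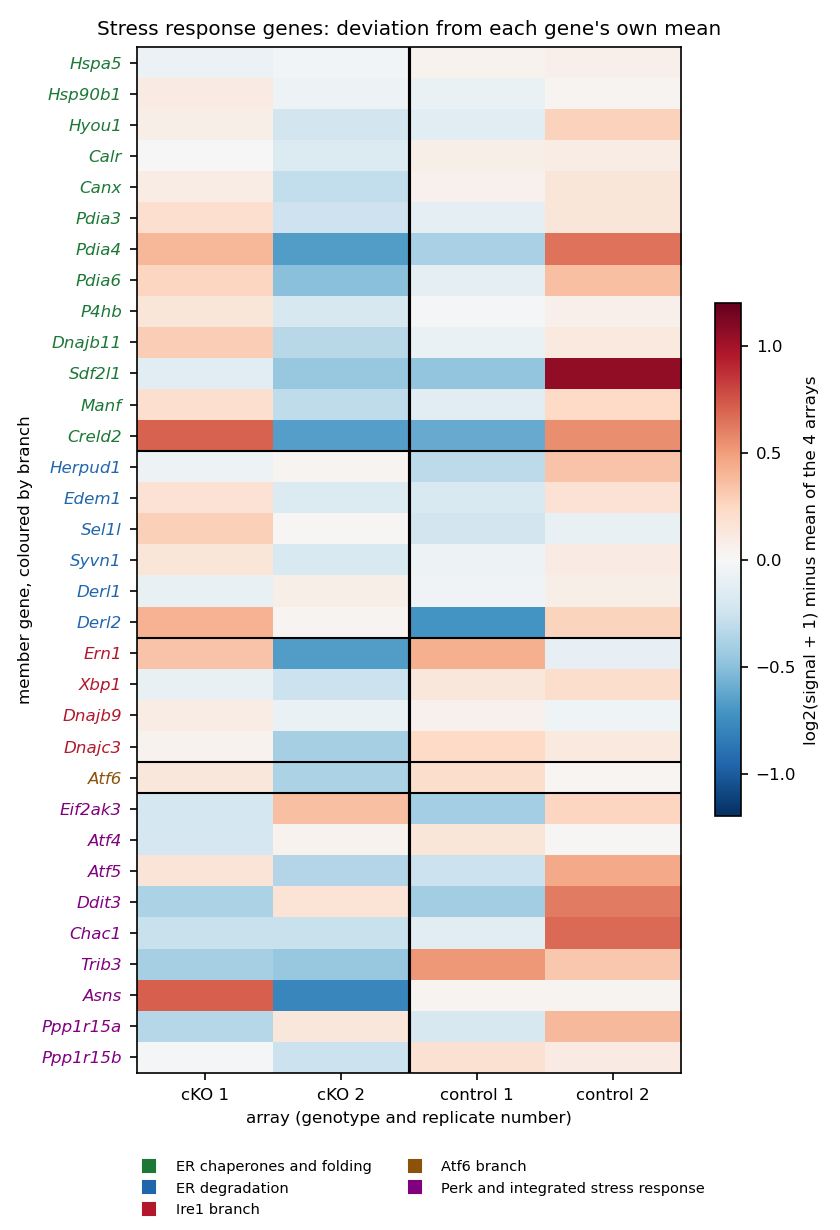
Each row is one of the 33 member genes, coloured by branch, and each column an array. Colour gives log2(signal + 1) minus the gene's mean over the 4 arrays, red above and blue below. Most folding genes are red on cKO 1 and control 2, while Xbp1, Chac1 and Trib3 are blue in both cKO columns.

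ER degradation was nearly level between the genotypes. Over its 6 genes the median log2 difference was -0.0096, with 3 higher and 3 lower in cKO. Sel1l, the scaffold of the Hrd1 ligase complex, read 873 and 723 in cKO cells, against 613 and 673 in control cells. It was higher on both cKO arrays (log2 difference 0.31, SE 0.27), and 4 of its 5 kept probe sets had that sign. The mean over the 5 differed by 0.10.

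Derl2, a derlin of the retrotranslocation channel, read 624 and 480 in cKO, against 285 and 562 in control. On this probe set control 1 was the low array, and without it the log2 difference of 0.45 (SE 0.40) became -0.04. A second, dimmer Derl2 probe set read 120 and 129 in cKO, against 105 and 87.2 in control. There both cKO readings were the higher ones (log2 difference 0.38, SE 0.37) and control 2 was lowest. Syvn1 is the Hrd1 ubiquitin ligase. It read 679 and 542 in cKO, against 588 and 659 in control, and its second probe set read 285 and 213 in cKO, against 308 and 305 in control, without overlap (log2 difference -0.31). Derl1, the other derlin listed, read 1701 and 1901 in cKO, against 1762 and 1905 in control. Its log2 difference was -0.027, and its other 3 probe sets gave -0.14, -0.15 and 0.087. The span of Derl1 over the 4 arrays, on the brightest probe set, was 1.12-fold, and that of Edem1, a lectin that passes glycoproteins to degradation, 1.28-fold. Herpud1, which organises the ligase complex, read 1180 and 1264 in cKO, against 991 and 1567 in control, with a log2 difference of -0.029.

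In the Perk branch and the integrated stress response, 7 of 8 tested genes (87.5%) had the lower mean in cKO, beside 57.3% of all genes. Their median log2 difference was -0.20, beside -0.043 over all genes. That median was 0.01 without control 2 and -0.36 without control 1. It was -0.22 without cKO 1 and -0.22 without cKO 2. The sensor Eif2ak3 (Perk) was the exception by sign. It read 138 and 206 in cKO cells, against 121 and 192 in control cells, and was high on both arrays numbered 2 (log2 difference 0.15, SE 0.41).

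Atf4, the central factor of the response, read 3620 and 4276 in cKO, against 4610 and 4194 in control. Control 1 was highest and cKO 1 lowest, and the groups overlapped (log2 difference -0.16, SE 0.15). A second Atf4 probe set, of almost the same brightness, differed by -0.01. Atf5, a related factor that Atf4 induces, read 1290 and 911 in cKO, against 969 and 1595 in control. It ran high on cKO 1 and control 2, as the folding genes did.

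Ddit3, which encodes the pro-apoptotic factor Chop, read 342 and 498 in cKO, against 333 and 687 in control. Both arrays numbered 2 were above both numbered 1, so within a genotype the 2 replicates differed by more than the genotypes did within number 1, where the fold was 1.03. Ppp1r15a (Gadd34), the inducible subunit that lets eIF2alpha be dephosphorylated, showed the same order. It read 2746 and 3821 in cKO, against 3042 and 4553 in control.

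Ppp1r15b, the constitutive counterpart of Ppp1r15a, did separate by genotype. It read 2251 and 1902 in cKO cells, against 2584 and 2434 in control cells, all cKO readings being lower (log2 difference -0.28, SE 0.18). Its second probe set read 869 and 677 in cKO, against 933 and 1011 in control, again without overlap. Within replicate numbers Ppp1r15b was lower in cKO by 1.15-fold and 1.28-fold.

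Chac1, a glutathione-degrading enzyme induced by Atf4, read 244 and 244 in cKO, against 268 and 471 in control. The distance came mostly from control 2. Its log2 difference of -0.54 (SE 0.38) was -0.13 without control 2 and -0.94 without control 1. Trib3, a pseudokinase that feeds back on Atf4, read 32.1 and 30.8 in cKO, against 61.3 and 53.6 in control, all below the level of the test. Its second probe set read 9.4 and 30.0 in cKO, against 44.2 and 20.6 in control, where the groups overlapped. Asns (asparagine synthetase) was dim as well, at 135 and 46.8 in cKO, against 83.5 and 83.2 in control.

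**Figure D5:**
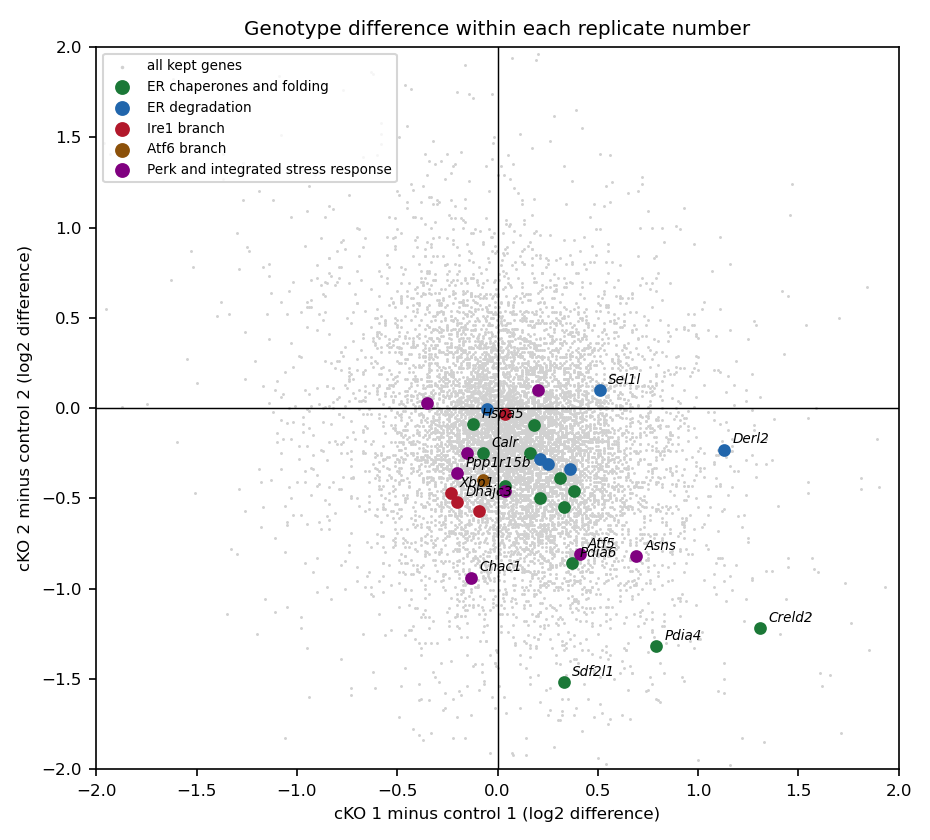
Log2 difference of cKO 1 minus control 1 (horizontal) against cKO 2 minus control 2 (vertical) for the 32 tested members, coloured by branch, over all kept genes in grey (53 genes beyond 2 on either axis are not drawn). Creld2 (1.31 and -1.22) and Pdia4 (0.79 and -1.32) lie far into the lower right, and Xbp1 (-0.23 and -0.47) lies in the lower left.

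Within replicate numbers, without further scaling of the arrays, the members as a whole went opposite ways, as all genes did. In the pair numbered 1, cKO was the higher array for 21 of 32 members, beside 6258 of 10140 genes. The median log2 difference there was 0.19, beside 0.095 over all genes. In the pair numbered 2, cKO was the lower array for 29 of 32 members, beside 6870 of 10140 genes. The median there was -0.40, beside -0.19. A total of 7 members (21.9%) were at least 1.5-fold lower in cKO within number 2, beside 18.7% of all genes, and 4 (12.5%) at least 1.5-fold higher within number 1, beside 9.24%. With arrays centred on their median the members' medians were 0.14 and -0.23, beside 0.04 and -0.02 over all genes. The centring itself removes most of the all-gene shift. There was 1 array a side in each of these comparisons, so they carry no test.

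The spread of the members over the arrays was close to that of all genes. The highest reading of a member was 1.48 times its lowest at the median, beside 1.56 for all genes, and 7 of 32 (21.9%) spanned at least 2-fold, beside 22.3%. Control 2 held the highest reading of 16 members and the lowest of 0. The lowest reading of 19 members was on cKO 2. Among all genes control 2 was highest in 39.8% and lowest in 15.1%, and cKO 2 was lowest in 36.9%. The cKO 2 array also had the lowest median signal (57.9) and the highest 3'/5' ratio of the Gapdh control probe sets (1.71). The part of these array traits in the members' readings was not tested.

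Other genes of the same pathway, which are not among the 33, gave the same absence of calls. Of 119 listed, 106 were tested and 0 had an adjusted limma p under 0.05, with 0 also at an unadjusted p under 0.05. Their median log2 difference was -0.085, with 67 lower in cKO and 39 higher. The opposed pattern, higher in cKO within number 1 and lower within number 2, was shown by 79 of them (74.5%, beside 44.8% of all genes).

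By group, it was shown by 20 of 21 genes of the translocon and of glycosylation, which bring new proteins into the ER, by 12 of 18 other folding enzymes and by 13 of 20 other degradation genes. In the translocon group the smallest p values belonged to Sec63, at 1183 and 891 in cKO against 1353 and 1203 in control, and to Sec61b and Ostc, with log2 differences of 0.35 and 0.33. In the folding group they belonged to Sil1, the nucleotide exchange factor of Hspa5, to Uggt1, which senses misfolded glycoproteins, and to Sdf2. Sil1 read 235 and 207 in cKO against 296 and 304 in control, without overlap (log2 difference -0.44). Uggt1 differed by -0.30 and Sdf2 by 0.22. For ER degradation the genes were Dnajb2 (-0.48), Herpud2 (-0.20) and Edem3 (0.29).

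Among other Atf4 targets, 20 of 27 tested genes showed the opposed pattern and 5 did so by at least 1.5-fold each way (18.5%, beside 2.8% of all genes). These 5, singled out after their values were seen, were the tRNA synthetase genes Aars and Tars, the amino acid transporter gene Slc7a1, the proline synthesis gene Aldh18a1 and the folate enzyme gene Mthfd2. Aars read 510 and 218 in cKO cells, against 188 and 458 in control cells. Slc7a1 read 1382 and 412 in cKO, against 800 and 1261 in control. The 3 genes of this list with the smallest p were Vldlr, Stc2 and Atf3. Vldlr, a lipoprotein receptor gene, read 1869 and 3081 in cKO, against 1535 and 1842 in control, and both cKO readings were the higher ones. The log2 difference of Vldlr was 0.51 (SE 0.27). Atf3, a stress-induced factor, read 3066 and 3294 in cKO, against 2647 and 2811 in control, also without overlap, and Stc2 differed by -0.67.

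The eIF2 subunits, its exchange factor and its other kinases had a median log2 difference of -0.13 over 10 tested genes. Eif2ak4 (Gcn2), the kinase that senses amino acid shortage, read 166 and 67.9 in cKO, against 131 and 191 in control. Eif2s3x and Eif2s2, subunits of eIF2, differed by -0.19 and -0.15. Of the proteases that cleave Atf6 and of related factors, 10 genes in all, 5 were higher and 5 lower. The genes with the smallest p were the ER-bound factor Creb3l1 (-0.66), the NF-Y subunit gene Nfya (-0.49) and Crebrf (0.16).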

How the data were processed

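The members and the other lists were chosen with earlier results of these data known. RNA of YFP-positive satellite cells was labelled with biotin and put on 1 array per sample. Each value the authors deposited is a linear intensity, made with MAS5 according to the submitters' notes. Its scaling target is unknown here, and trimmed means ran from 211 to 240. Median signals ran from 57.9 to 70.4, and the 3'/5' ratio of the Gapdh control probe sets from 1.54 to 1.71.

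Probe sets were named from the platform annotation (34945 with 1 symbol, 932 with several, which named no gene, and 9160 with none; 64 AFFX controls were left out). Values were taken as log2(signal + 1), kept at or above the median mean (22519 probe sets, 10140 genes), and compared with limma 3.58.1 in R 4.3.3 (eBayes with an intensity trend, no block, 2-sided, Benjamini-Hochberg adjustment over all kept probe sets at 0.05). Folds of low signals are understated on this scale. The brightest kept probe set stood for a gene, with others given for some genes. Levels of different probe sets were not compared. Sensors, Hspa5, members without overlap, the 3 members per branch with the smallest p, and up to 3 genes per other list were named with values; other members are given for completeness. On simulated arrays of the cKO and control comparison (22519 probe sets, 200 changed, independent noise) limma recovered 29.9% of 2-fold and 94.3% of 4-fold changes. The noise was sized from a fit that removes the spread between replicate numbers, which the test of the real arrays keeps. These shares can therefore be too high for the real arrays. Other settings are listed in the closing section. Promoter windows came from RefSeq, GRCm38.p6.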

Additional observations from a re-analysis of the deposited data

How the results depend on the processing

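No member was called under any of the 13 other settings tried. Over all probe sets limma called 0, and 5 with the replicate number as a block, where 473 instead of 163 had an unadjusted p under 0.05. With 1 array left out it called from 0 to 5 (5 without cKO 1, 1 without control 1), none of them a member. Such fits take the single array left in a group to vary as the 2 of the other. The numbers are not said to mark a shared mouse, litter or day. Deviations from the group means correlated at 0.43 between arrays of the same number over all kept probe sets, and at 0.19 over the 68 of the members, and the block changed no call of a member. Members without overlap numbered 7 in all, and from 17 to 23 with 1 array left out, where 3 arrays overlap less often (54.6% to 64% of all genes did not overlap, against 20.6% with all 4). They numbered 6 after quantile normalization and 7 with centring. The members' median of -0.13 lay between -0.28 and 0.053 with an array left out, and between -0.14 and -0.069 otherwise. Under every setting that kept all 4 arrays, 0 members had an unadjusted limma p under 0.05. No member without overlap changed sign under any setting; of the overlapping ones, up to 13 did so when 1 array was left out and up to 7 when arrays were rescaled. With only unsuffixed probe sets, Hyou1 and Syvn1 moved to -0.43 and -0.31 because another probe set stood for them. On simulated arrays with 2 a group limma called 29.9% of 2-fold changes, with noise that leaves out the spread between replicate numbers.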
